A study of Mus musculus with 5 samples.

Results

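The genes described here are 8 cyclophilins: Ppif, which encodes the mitochondrial cyclophilin D (CypD), and Ppia, Ppib, Ppic, Ppid, Ppie, Ppig and Ppih. They were taken by symbol from the 29267 genes in the tables, and all 8 were found in each of the 5 libraries. All libraries came from ICR-strain mouse embryonic fibroblasts (MEF) undergoing reprogramming, the conversion of a differentiated cell towards pluripotency by introduced factors. At day 4, 1 library came from cells labelled as expressing Flag, the control for the expression, and 1 from cells labelled as expressing CypD. At day 8, 1 library each came from cells with no agent, cells treated with mastoparan, a peptide of wasp venom, and cells treated with paraquat, a herbicide that generates superoxide. The genotype label of all 3 day-8 libraries also reads as CypD-expressing, whereas the design text of the series mentions CypD expression for day 4 alone. The reprogramming factors, the vector that carries CypD, the doses and the number of embryos or cultures behind a library were not stated in the sources used here. The title of the series gives the question as the genes under control of the mitoflash, a short superoxide and pH transient of single mitochondria.

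Cyclophilins are peptidyl-prolyl isomerases: they turn the bond before a proline residue between its cis and trans forms, which assists protein folding, and many of them bind the drug cyclosporin A. Family members share the isomerase domain and differ in where they reside. Cyclophilin D works in the mitochondrial matrix, where it sensitises the permeability transition pore to calcium and oxidants, and others act in the cytosol, the endoplasmic reticulum and the spliceosome.

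The tables give an expected count (reads assigned to a gene, which need not be whole) and TPM (transcripts per 1000000, adjusted for transcript length) for every gene. Total expected counts, rounded per gene, were between 2425950 and 3426650 per library. With 1 library in each group no difference below has a replicate check, and all intervals are 95% intervals of counting error only. A level compared between libraries is in scaled CPM, counts per 1000000 reads after TMM scaling of the libraries; a level compared between genes is in TPM. All 10 fibroblast markers had counts in every library, with a summed TPM of 3651 to 4891, though Lum had only 2 counts with paraquat. Vim made up most of this sum, at 3033 to 4013 TPM. The 6 epithelial markers summed to 126 and 141 TPM at day 4, where Cldn6 was at 0, and to between 321 and 356 at day 8. Of these sums, Krt8 made up 99.2 and 109 TPM at day 4 and 241 to 253 TPM at day 8. Pluripotency markers summed to at most 8.24 TPM. Of the other lists, endothelial markers summed to 13.1 to 20.6 TPM, blood markers to 8.37 to 21.4 and muscle markers to 0.63 to 2.25, with Cdh5, Adgre1, Myod1 and Myog at 0 in all 5 libraries. Most of the endothelial sum was Tek, at 12.1 to 17.6 TPM. Cd68 made up most of the blood sum, at 7.22 and 10.5 TPM at day 4 and 17.8 to 20.9 TPM at day 8. The part of these markers in the results was not tested. In such bulk samples fewer cells of a type and less RNA per cell cannot be told apart.

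Because the isomerase domains are related, the reference sequences were first compared for how far reads of a cyclophilin could be assigned to another. The most alike ungapped stretches of 49 bases in the coding sequences of Ppif and Ppia are shown here, from GENCODE M21 on the forward strand of GRCm38, because Ppia is the most abundant of the 8 genes. The Ppif stretch covers coding bases 454 to 502 in exons 5 and 6, with its ends at chr14:25698310-25699483, and the Ppia stretch covers coding bases 331 to 379 in exons 4 and 5, with its ends at chr11:6419254-6419494. Capitals mark the bases that are identical in both.
Ppif: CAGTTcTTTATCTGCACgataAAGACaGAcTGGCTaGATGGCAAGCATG
Ppia: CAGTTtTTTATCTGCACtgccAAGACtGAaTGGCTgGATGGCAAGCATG
These stretches were identical at 41 of 49 bases. Over the whole coding sequences of Ppif and Ppia, at any ungapped offset, the longest identical run was 15 bases. The closest stretch of the other genes matched Ppif at 43 bases in Ppid, 42 in Ppie, 41 in Ppib, 38 in Ppih, and 37 each in Ppic and Ppig. No window of 49 bases was shared between any pair of the 8 genes. Windows shared with genes outside the family made up 6.31% of those of Ppia, 4.64% of those of Ppid and 0.290% of those of Ppig, and none of those of the other 5. Gm5160 and Gm37599, predicted genes that share at least 20% of their own windows with Ppia and Ppid respectively, had at most 2 counts in any library. Most of the windows that Ppia shares, 5.75% of its own, were shared with Gclm, which had 103 to 154 expected counts. They made up 3.27% of the windows of Gclm, which is under 20%, so it was not among the genes summed with Ppia.

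At day 4, Ppif (ENSMUSG00000021868, at chr14:25694154-25700468 on the forward strand of GRCm38) had 112 counts with Flag and 2629 with CypD. At day 8 it had 90 counts in the control, 95 with mastoparan and 79 with paraquat. In scaled CPM these were 44.2 for Flag, 761 for CypD, 29.2 for the control, 33.3 for mastoparan and 34.2 for paraquat. The CypD library stood above the other 4, whose values lay between 29.2 and 44.2. Its Ppif level was 17.2-fold that of Flag (interval 14.3 to 21.0), and between 22.2-fold (17.8 to 28.2, against paraquat) and 26.1-fold (21.1 to 32.6, against the control) those of the day-8 libraries. In TPM, Ppif stood at rank 3768 among all genes in the Flag library and at rank 180 in the CypD library. Its ranks at day 8 were 4997 in the control, 4640 with mastoparan and 4360 with paraquat.

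The day-8 libraries, labelled as CypD-expressing, thus had Ppif levels below that of the library labelled Flag. The Flag level was 1.51-fold the day-8 control (1.14 to 2.02), 1.33-fold the mastoparan library (1.00 to 1.76, with the lower bound just under 1) and 1.29-fold the paraquat library (0.960 to 1.74). Among the day-8 libraries themselves every interval included 1. The tables sum all reads of the gene, so transcripts of an introduced CypD and of the endogenous locus cannot be told apart by their counts.

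The deposited average transcript length of Ppif gives a further readout. The reference holds a spliced coding transcript of 1549 bases and a transcript of 3637 bases that keeps introns of 1480 and 596 bases. The junction that separates them is shown because it is the point at which these transcripts part. Both sequences run along the forward strand, with the end of exon 3 (chr14:25696068-25696092) in lower case. The capitals mark the start of exon 4 (chr14:25697573-25697597) in the spliced form and of the retained intron (chr14:25696093-25696117) in the other.
Ppif spliced: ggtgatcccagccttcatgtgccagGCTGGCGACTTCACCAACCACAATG
Ppif intron-retaining: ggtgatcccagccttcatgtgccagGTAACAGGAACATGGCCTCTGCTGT
The average length was 1654.71 bases in the Flag library and 1551.72 in the CypD library. At day 8 it was 1633.03 in the control, 1665.29 with mastoparan and 1549 with paraquat. Read as a mixture of these transcripts, the averages give the intron-retaining form 5.06% of Ppif transcripts in the Flag library and 0.130% in the CypD library. The corresponding shares were 4.02% in the control, 5.57% with mastoparan and 0% with paraquat. The CypD library thus carried nearly all of its Ppif on the spliced form, at 730 TPM against 39.0 TPM in the Flag library. The intron-retaining form was at 0.952 TPM there and 2.08 TPM in the Flag library, and at 1.07, 1.59 and 0 TPM in the control, mastoparan and paraquat libraries. These TPM of the longer form correspond to 12.7 of the reads with Flag, 8.18 with CypD, 8.20 in the control and 11.7 with mastoparan, so at this depth they set no order among the libraries. The shares assume that the authors' annotation held just these transcripts with reads.

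**Figure D1:**
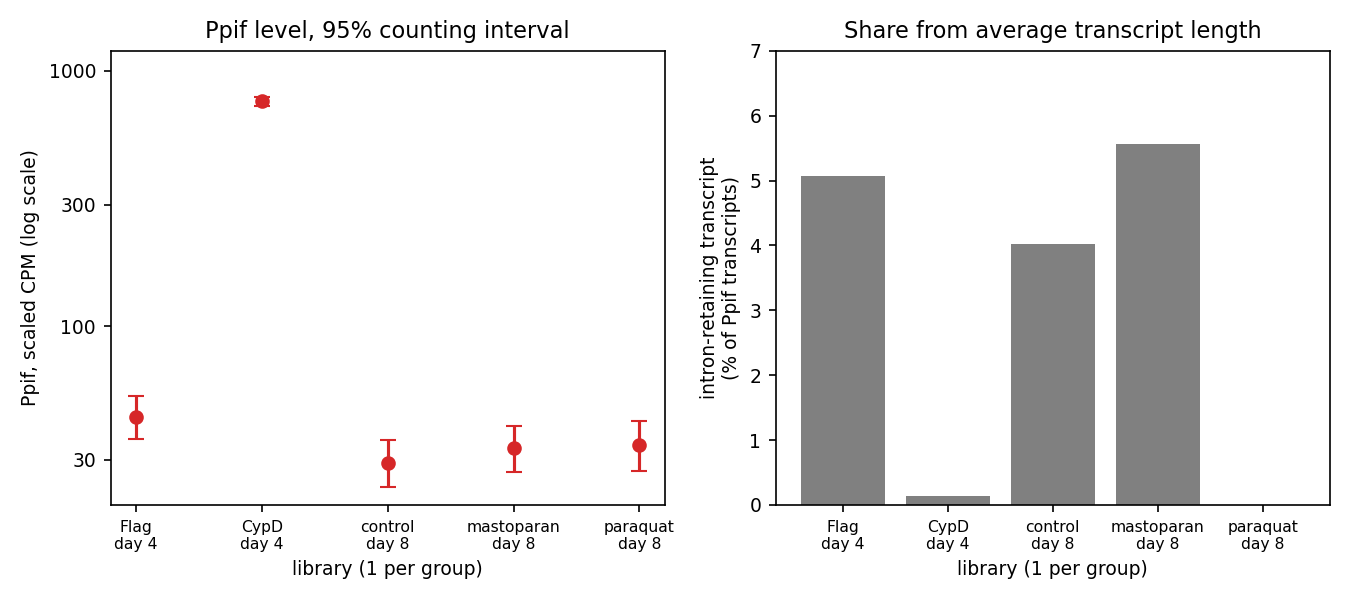
Left, Ppif level in scaled CPM on a log axis for each of the 5 libraries (points), with the 95% counting interval (bars). Right, the intron-retaining share of Ppif transcripts in percent, derived from the deposited average transcript length: 5.06% with Flag, 0.130% with CypD, and 0% with paraquat.

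The levels of the 8 genes spanned a wide range of TPM, and Ppia, Ppib and Ppic were above all other members but Ppif in every library. Ppia (cyclophilin A, the cytosolic receptor of cyclosporin A, ENSMUSG00000071866, chr11:6415443-6419817) was at 8812 TPM with Flag, 9163 with CypD, 7127 in the control, 7550 with mastoparan and 6213 with paraquat. It was the highest of the 8 in each library, with 78.1% to 83.1% of their summed TPM, and stood between rank 5 and rank 24 among all genes. Ppib (cyclophilin B, which resides in the endoplasmic reticulum and assists collagen folding, ENSMUSG00000032383, chr9:66060222-66066623) followed with 877, 913, 853, 896 and 977 TPM in the same order of libraries. Ppic (cyclophilin C, of the secretory pathway, ENSMUSG00000024538, chr18:53406332-53418115) was at 422 and 417 TPM at day 4 and at 345, 338 and 286 TPM at day 8. Ppid (cyclophilin 40, a partner of the chaperone HSP90, ENSMUSG00000027804, chr3:79591342-79603650) was at 178 and 206 TPM at day 4 and at 162, 152 and 122 TPM at day 8. Its level with paraquat was the lowest of the 5, under that of Ppie.

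The nuclear members lay lower. Ppih (a component of the U4/U6 small nuclear ribonucleoprotein, ENSMUSG00000060288, chr4:119300010-119320546) was at 141 TPM in the Flag library and 156 in the CypD library. At day 8 it was at 93.6 TPM in the control, 95.03 with mastoparan and 109 with paraquat. Ppie (cyclophilin E, a spliceosome protein with an RNA recognition motif, ENSMUSG00000028651, chr4:123127115-123139951) was at 101 and 105 TPM at day 4 and at 108, 102 and 136 TPM at day 8. Ppie was thus below Ppih at day 4 and above it in all 3 day-8 libraries. Ppig (an SR-related cyclophilin of nuclear speckles, ENSMUSG00000042133, chr2:69722545-69754012) was at 33.2 and 43.4 TPM at day 4 and at 33.6, 19.4 and 18.2 TPM at day 8. Ppif itself was at 41.1 TPM in the Flag library and 731 in the CypD library, and at 26.5, 28.6 and 26.9 TPM in the control, mastoparan and paraquat libraries. It took place 7 of 8 with Flag, place 3 with CypD, the last place in the day-8 control, and place 7 with each agent. Its share of the family's summed TPM was 0.388% with Flag, 6.23% with CypD, and between 0.303% and 0.341% at day 8. The TPM, ranks and share of Ppif with CypD rest on an average transcript length of 1551.72 bases. The length of an introduced CypD transcript was not stated, and the Ppif coding sequence is 618 bases, so these values could differ for a shorter transcript.

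**Figure D2:**
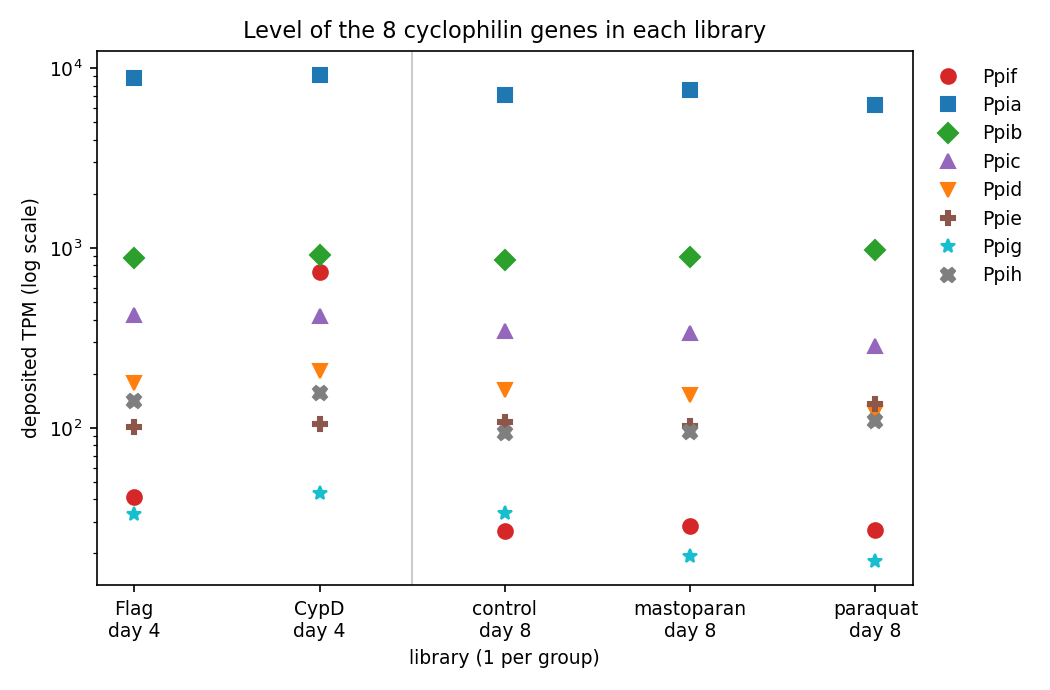
Deposited TPM (log axis) of the 8 cyclophilin genes in each of the 5 libraries, with 1 symbol per gene and a grey line between day 4 and day 8. Ppia is uppermost in every library, and Ppif moves from 41.1 TPM in the Flag library to 731 TPM in the CypD library, next to Ppib.

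The comparison of the CypD and Flag libraries at day 4 asks how cells that express cyclophilin D differ from the Flag control. Apart from Ppif, no cyclophilin was past 1.5-fold, so 1 of 8 genes was called, beside 11.0% of all genes tested in that comparison. All other 7 had a log2 ratio slightly above 0, with a median of 0.11 and a range of 0.03 to 0.16, while the median of all 13244 genes was -0.02 and 47.0% of them were above 0. Ppia had 9262 counts in the Flag library and 13668 in the CypD library, or 3655 and 3958 scaled CPM, a fold of 1.08 (1.05 to 1.11). Ppib had 1356 and 1991 counts, or 535 and 577 scaled CPM, and also a fold of 1.08 (1.01 to 1.16). With the length trend removed, their log2 ratios went from 0.11 each to 0.01 for Ppia and 0.02 for Ppib. On scaled counts 3 of 8 intervals left out 1, those of Ppif, Ppia and Ppib, beside 8.32% of all genes, where genes with more counts have narrower intervals. Ppic had 350 and 358 scaled CPM, with a fold of 1.02 (0.938 to 1.12), and its log2 ratio was below 0 on TPM and, at -0.02, when a trend along transcript length was removed. Ppid was at 195 and 213 scaled CPM, with a fold of 1.09 (0.976 to 1.23). For the nuclear members the folds were 1.06 for Ppie (0.881 to 1.28), 1.11 for Ppig (0.936 to 1.33) and 1.09 for Ppih (0.904 to 1.32). For each of these 7 genes the upper bound lay under 1.5-fold.

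**Figure D3:**
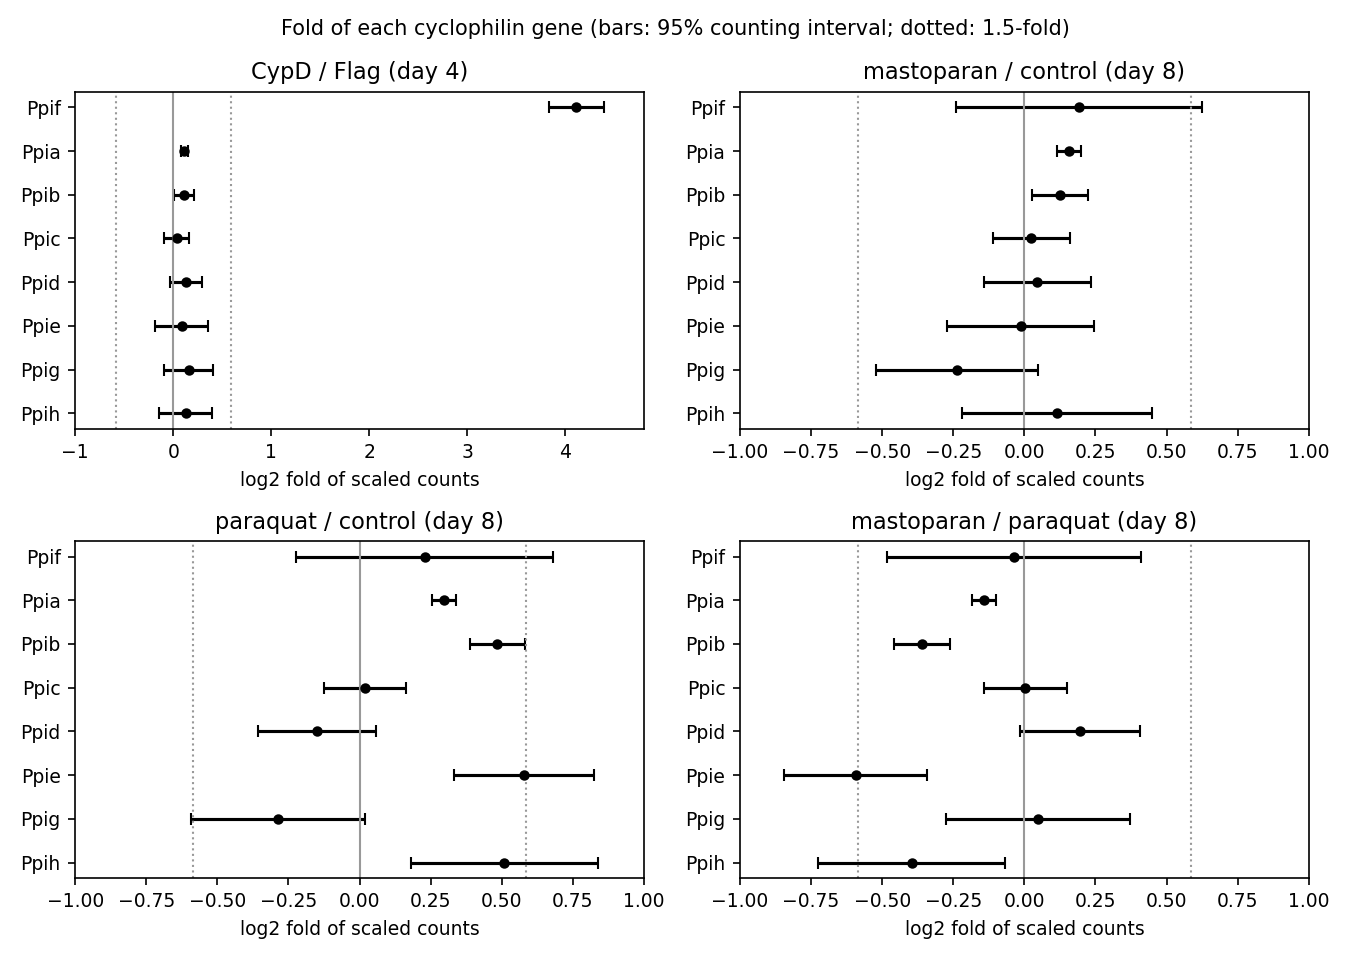
Log2 fold of scaled counts for each cyclophilin gene in 4 comparisons (points) with 95% counting intervals (bars), where dotted lines mark 1.5-fold and the upper left panel has a wider axis. Ppif stands alone at 17.2-fold in the CypD against Flag panel, and in the paraquat against control panel Ppib, Ppie and Ppih lie between 1.40-fold and 1.49-fold.

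The day-8 comparisons ask how cells under reprogramming respond to mastoparan and to paraquat. They share the control library, so their values are set side by side below and are not independent of each other. With mastoparan 0 of 8 cyclophilins were past 1.5-fold, beside 10.9% of all 13651 genes tested. The median log2 ratio of the 8 was 0.08, with a range of -0.24 to 0.19, and that of all genes was 0.01. Ppif had a fold of 1.14 (0.847 to 1.54). Ppia was at 3067 scaled CPM in the control and 3421 with mastoparan, a fold of 1.12 (1.08 to 1.15), and Ppib at 540 and 589, a fold of 1.09 (1.02 to 1.17). These 2 of 8 had intervals that left out 1, beside 7.27% of all genes, and their log2 ratios of 0.16 and 0.12 were each 0.07 with the length trend removed. Ppic (296 and 301 scaled CPM), Ppid (155 and 160), Ppie (85.0 and 84.2) and Ppih (49.3 and 53.3) had folds between 0.991 and 1.08. Ppig was at 76.5 and 64.9 scaled CPM, 1.18 times lower with mastoparan (0.968 to 1.44).

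With paraquat 0 of 8 cyclophilins were past 1.5-fold, beside 18.7% of all genes and 1311 of the 11160 with a mean of at least 5 CPM. Intervals that left out 1 were those of 4 of the 8, beside 21.0% of all genes. Ppie had 262 counts in the control and 293 with paraquat, or 85.0 and 127 scaled CPM, a fold of 1.49 (1.26 to 1.77) that passed 1.5-fold with DESeq2 or upper-quartile factors. Its level with paraquat was the highest of the 5 libraries, whose other values lay between 77.0 and 85.0 scaled CPM. Ppih was at 49.3 and 70.2 scaled CPM, a fold of 1.42 (1.13 to 1.79), and on this scale nearer to its day-4 levels of 74.6 and 81.4. On TPM it was at 109 with paraquat, nearer to 93.6 in the control than to 141 and 156 at day 4. Ppib was at 540 and 756 scaled CPM, a fold of 1.40 with a lower bound of 1.31 and an upper bound just under 1.5, and this was also its highest level. For Ppia the levels were 3067 and 3773 scaled CPM and the fold was 1.23 (1.19 to 1.27). Members without such an interval were Ppif at 1.17-fold (0.856 to 1.60), Ppic at 1.01-fold (0.918 to 1.12), Ppid at 1.11 times lower (0.961 to 1.28) and Ppig at 1.22 times lower (0.987 to 1.51).

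These paraquat ratios depended on the unit and the scaling. Over all genes the calls past 1.5-fold were 1112 higher and 1438 lower. On deposited TPM they were 575 higher and 3015 lower, and with library totals alone 774 higher and 1803 lower. The median log2 ratio of all genes was -0.03 on scaled counts, -0.13 with library totals alone and -0.28 on TPM. Ppia had a log2 ratio of 0.30 on scaled counts, -0.20 on TPM and -0.13 with the length trend removed, so its direction was not settled by these data. Ppic likewise went from 0.02 to -0.27 on TPM and -0.15 with the length trend removed. By contrast Ppie, Ppib and Ppih remained above 0 in every setting tried. With the length trend removed their log2 ratios were 0.37 for Ppie, 0.17 for Ppib and 0.16 for Ppih, and on TPM 0.33, 0.20 and 0.22. Counting intervals were computed on scaled counts alone, so a direction kept in these settings does not by itself show a difference. The average transcript length the authors assigned also moved: for Ppia it was 668 bases in the control and 764 with paraquat. For Ppig it was 3322 bases in the control, 4700 with mastoparan and 4129 with paraquat, and the log2 TPM ratio of Ppig was -0.78 with mastoparan and -0.87 with paraquat, against -0.24 and -0.28 on scaled counts. Only these values of Ppig were past 1.5-fold on TPM in the comparisons with the day-8 control. The part that length or RNA quality has in these ratios was not tested.

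**Figure D4:**
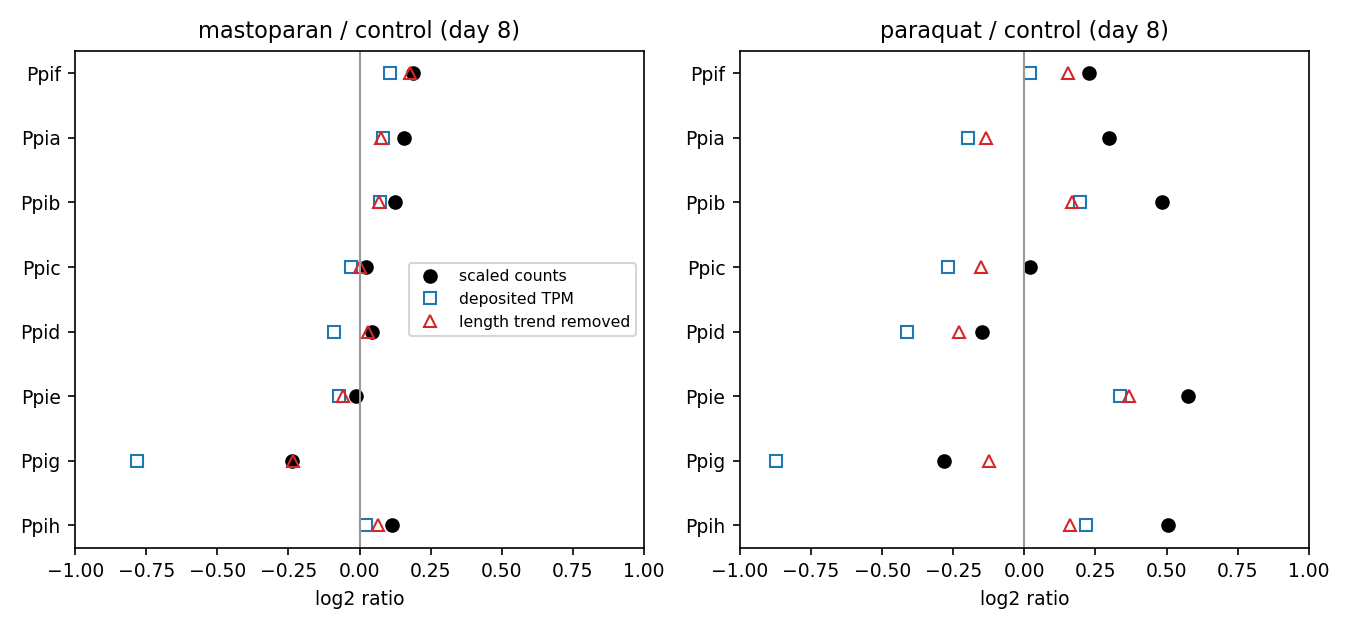
Log2 ratio of each cyclophilin gene against the day-8 control for mastoparan (left) and paraquat (right), computed from scaled counts (filled circles), deposited TPM (open squares) and scaled counts with the length trend removed (open triangles). With paraquat, Ppia lies at 0.30 on scaled counts and at -0.20 on TPM, while Ppie lies above 0 in all 3.

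Set against each other directly, the mastoparan and paraquat libraries differed by more than 1.5-fold in 1 of 8 cyclophilins, beside 17.1% of all genes. Ppie was 1.51 times lower with mastoparan (1.27 to 1.80), at 84.2 against 127 scaled CPM, which lies close to the threshold, and on TPM or with the length trend removed 0 of 8 were past it. Ppih was 1.32 times lower (1.05 to 1.65), Ppib 1.28 times lower (1.20 to 1.37) and Ppia 1.10 times lower (1.07 to 1.14), the last with a log2 ratio of 0.28 on TPM against -0.14 on scaled counts. The intervals of these 4 genes left out 1, beside those of 19.2% of all genes, and the intervals of Ppif, Ppic, Ppid and Ppig included it. Ppif was at 33.3 and 34.2 scaled CPM, a fold of 0.974 (0.715 to 1.33). Over all genes the calls were 1302 higher and 1029 lower with mastoparan, and 2449 higher and 697 lower on TPM.

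The day-8 control and the day-4 Flag library differ in day and in genotype label together, which cannot be told apart. Between them 2 of 8 cyclophilins were past 1.5-fold, beside 31.7% of all genes, and both were lower at day 8, though 0 were past it with library totals alone. Ppif was 1.51 times lower (1.14 to 2.02) and Ppih also 1.51 times lower (1.22 to 1.89), at 74.6 scaled CPM in the Flag library and 49.3 in the control. Smaller differences in the same direction with intervals that left out 1 were those of Ppid at 1.26 times lower (1.11 to 1.43), Ppia at 1.19 times lower (1.16 to 1.23) and Ppic at 1.18 times lower (1.07 to 1.30). Ppib (1.01-fold, 0.939 to 1.09), Ppie (1.10-fold, 0.914 to 1.34) and Ppig (1.11 times lower, 0.922 to 1.35) had intervals that included 1. Thus 5 of 8 intervals left out 1, beside 37.0% of all genes.

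Profiles over the 5 libraries were compared with that of Ppif for the 7932 other genes whose mean reached 20 CPM. With predicted genes, clone names and genes without a symbol left out, the nearest were those of Akr1c18, Fst and Rrp12. Likeness was the root mean square difference of log2 scaled CPM, each gene centred on its own mean. It was 1.25 for Akr1c18, 1.29 for Fst and 1.33 for Rrp12, where a flat profile would give 1.78. Akr1c18, an aldo-keto reductase, was at 81.3 scaled CPM with Flag, 95.3 with CypD, and between 17.2 and 26.4 at day 8. Fst, the activin antagonist follistatin, was at 39.5 and 45.5 scaled CPM at day 4 and between 10.4 and 13.0 at day 8. Their log2 ratios of CypD against Flag were 0.23 for Akr1c18, 0.20 for Fst and 0.06 for Rrp12, beside 4.09 for Ppif. None of them thus came near its contrast of CypD and Flag. In the Flag library they were well above their day-8 levels. Ppif there, at 44.2 scaled CPM, was less far above its day-8 levels of 29.2 to 34.2, at 1.51-fold the control.

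The other genes of the family and the genes that cyclophilins work with were taken as lists, whose counts past 1.5-fold are to be read against the shares of all genes: 11.0% for CypD against Flag, 10.9% for mastoparan and 18.7% for paraquat against the control, and 17.1% for mastoparan against paraquat. Other cyclophilin-domain genes number 9, of which Ppil6 was too low to measure. Of the remaining 8, none was past 1.5-fold between CypD and Flag (median log2 ratio 0.02) or between mastoparan and control (median 0.08). With paraquat 1 was lower: Ranbp2, a large nuclear pore protein with a cyclophilin domain, had 131 counts in the control and 54 with paraquat, 1.82 times lower (1.31 to 2.54). Its log2 ratio was -0.85, and -0.60 with the length trend removed. Ranbp2 and Ppil4, a spliceosomal cyclophilin, were the 2 genes past 1.5-fold between mastoparan and paraquat, at 1.83-fold (1.32 to 2.57) and 1.55-fold (0.999 to 2.43) higher with mastoparan. The list's median with paraquat was 0.03 on scaled counts and -0.09 with the length trend removed, while that of the 8 cyclophilins was 0.26 and 0.01.

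Around Ppif stand 19 genes of the permeability transition, among them the adenine nucleotide translocases, the VDAC channels and subunits of the ATP synthase. None of the 19 was past 1.5-fold between CypD and Flag, with a median log2 ratio of 0.08. The furthest were Sirt3, a mitochondrial deacetylase, at 1.34-fold (0.899 to 2.02) and Hk1, a hexokinase that binds VDAC, at 1.30 times lower (1.11 to 1.51). None was past 1.5-fold with mastoparan (median 0.05) or paraquat (median 0.04) against the control either. With mastoparan Vdac3 was at 1.29-fold (1.11 to 1.48) and Mcu, the calcium uniporter, at 1.28-fold (1.01 to 1.61). With paraquat Atp5o, an ATP synthase subunit, was at 1.43-fold (1.31 to 1.55) and Hk1 was 1.39 times lower (1.23 to 1.58). On TPM Atp5o was at 803 with paraquat against 680 in the control, and Hk1 at 48.2 against 85.7. With the length trend removed, the list's median with paraquat was -0.04. Mcu was 1.55-fold higher in the mastoparan library than in the paraquat library (1.19 to 2.04), the only gene of the 19 called there.

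For Ppia, the list holds calcineurin, the phosphatase that the complex of cyclophilin A and cyclosporin inhibits, its NFAT targets and Bsg, a surface receptor of cyclophilin A. Of 11 genes, 1 was called between CypD and Flag, a share near the 11.0% of all genes: Nfatc1, with 23 counts under CypD and 28 under Flag, was 1.66 times lower, with an interval of 0.922 to 3.02 that included 1. None was called for mastoparan or paraquat against the control. For Ppib, none of 14 collagen-modifying and folding genes was called in any comparison at day 4 or within day 8, with median log2 ratios of 0.01 for CypD against Flag, 0.05 for mastoparan and under 0.01 for paraquat. P3h1, the prolyl hydroxylase that forms a complex with cyclophilin B, was 1.10 times lower in the CypD library (0.916 to 1.31) and 1.24 times lower with mastoparan, with a lower bound of 1.03. On TPM P3h1 was higher with CypD, at 77.9 against 66.4 with Flag, and lower with mastoparan, at 49.3 against 78.95 in the control. Crtap went the other way with mastoparan, at 1.15-fold (1.01 to 1.31).

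Of 10 genes listed beside Ppid, which encode HSP90, the chaperone Hspa8 and co-chaperones, likewise none was called in these comparisons. Their medians were 0.09 for CypD against Flag, 0.03 for mastoparan and 0.16 for paraquat. Stub1, a ubiquitin ligase of the chaperone system, was the furthest in the CypD library at 1.20-fold (1.06 to 1.36) and with paraquat at 1.31-fold (1.15 to 1.49). On TPM Stub1 was at 154 with paraquat against 144 in the control. With the length trend removed, the median of these 10 genes with paraquat was 0.08. Of 13 genes of the U4/U6 particle and the Prp19 complex beside Ppih and Ppie, none was called between CypD and Flag (median -0.09) or with mastoparan (median 0.01), and 1 was called with paraquat. That gene, Aqr, an RNA helicase of the spliceosome, had 158 counts in the control and 74 with paraquat, 1.60 times lower (1.21 to 2.14). On TPM Aqr was at 15.35 in the control and 7.91 with paraquat. The list's median with paraquat was 0.01, beside log2 ratios of 0.51 for Ppih and 0.58 for Ppie. With the length trend removed the list's median was still 0.01, while Ppih fell to 0.16 and Ppie to 0.37.

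**Figure D5:**
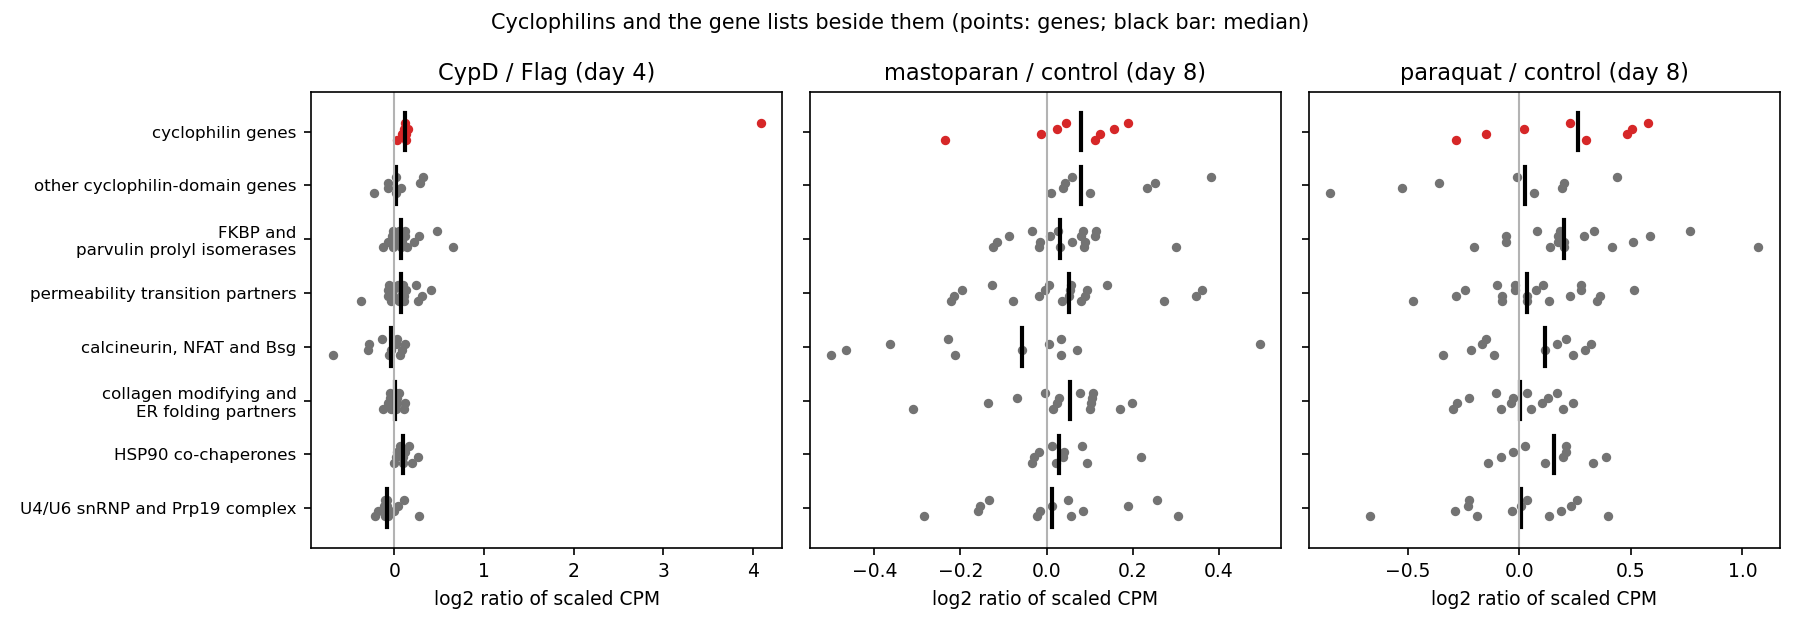
Log2 ratio of scaled CPM of each gene (points) and the median (black bar) for the 8 cyclophilins (red) and the lists beside them (grey) in 3 comparisons, each panel with its own axis. Ppif is the single point near 4.09 in the CypD against Flag panel, and Ranbp2 is the lowest point with paraquat at -0.85.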

How the data were processed

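RNA was extracted with Trizol and libraries were made with a TruSeq kit, per the labels' protocols. Bowtie2 2.2.5 and the mm10 genome (GRCm38) were used by the authors, per the submitters' processing notes. Which program counted reads, and on which annotation, was not stated in the sources used here. The deposited tables hold, per the file headers, an expected count, TPM, FPKM and an average and effective transcript length for each gene. The deposited FPKM was used for ranks alone.

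Gene symbols, transcript lengths and sequences came from GENCODE M21, in which 28756 of the 29267 gene IDs had a symbol. The authors' annotation differs from it: of 14457 genes with a single transcript there, 71.1% had the same length within 0.5 bases. Windows of 49 bases were used because the deposited effective length of Ppif is 48.53 bases under its average length. Protein sequences were not used here, so the planned comparison of protein identity was replaced by coding sequence.

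Expected counts were rounded and scaled by TMM factors (edgeR 4.0.16 in R 4.3.3), which lay between 0.951 and 1.02. Log2 ratios used scaled CPM with a pseudocount of 0.5 CPM, and a gene was tested where its mean in that day's libraries reached 1 CPM. For the day-8 control against Flag, which spans both days, this mean was over all 5 libraries. A gene is called past 1.5-fold. Folds are ratios of scaled counts without pseudocount, with exact Clopper-Pearson 95% intervals. Reads of amplified libraries are not independent molecules, so intervals cover counting error only. As each group has 1 library, no test was run and no p-value is given. A floor of 3 counts is between 0.869 and 1.30 scaled CPM.

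The 8 genes, the lists and the rules were chosen with earlier results of these data known. Named genes are the 8 members, the 2 measured genes of each list with the largest absolute log2 ratio in a comparison, and the 3 genes most like Ppif. Predicted genes, clone names and genes without a symbol were left out of the likeness to Ppif. Alternatives were library totals, DESeq2 1.42.0 size factors, upper-quartile factors, library totals without the 20 most abundant genes and the mitochondrially encoded and rRNA genes, TPM, pseudocounts of 0.1 and 2 CPM, other filters, and sums with genes that share sequence. Removing the median of 40 bins of transcript length was added after seeing the data. The code was tested on simulated data. Computation used Python 3.11.15, numpy 2.4.6, scipy 1.17.1, pandas 2.3.3 and matplotlib 3.10.9.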

Additional observations from a re-analysis of the deposited data

How the results depend on the processing

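The 17.2-fold Ppif difference between CypD and Flag held in every setting, with log2 ratios of 4.05 to 4.14. Over all comparisons, 333 alternative log2 ratios of single cyclophilins moved by less than their counting interval and 27 moved by more, of which 13 were on deposited TPM and 10 with the length trend removed. All 45 alternative medians stayed within the range between members, which is wide and does not show that they held. On TPM the median log2 ratio changed sign against the control, from 0.08 to -0.003 with mastoparan and from 0.26 to -0.09 with paraquat. It also did so for mastoparan against paraquat, from -0.09 to 0.09. It kept its sign for CypD against Flag (0.12 and 0.10) and for the day-8 control against Flag (-0.25 and -0.22). The number of cyclophilins past 1.5-fold moved as follows. For mastoparan against control it was 1 on TPM, against 0. For paraquat against control it was 1 with DESeq2 size factors, with upper-quartile factors, without the 20 most abundant genes and on TPM, against 0. For mastoparan against paraquat it was 0 with library totals alone, on TPM, with a pseudocount of 2 CPM and with the length trend removed, against 1. For the day-8 control against Flag it was 0 with library totals alone, with upper-quartile factors, without the 20 most abundant genes and with a pseudocount of 2 CPM, and 1 with the length trend removed, against 2. By scaled CPM in place of TPM, Ppif took place 8 in the Flag, mastoparan and paraquat libraries and place 2 in the CypD library. Over all genes, the number past 1.5-fold for CypD against Flag was 1452, and 830 with a pseudocount of 2 CPM, 4534 with no filter and 433 with a minimum of 5 CPM. For mastoparan against control it was 1485, and 798, 4222 and 471 in those settings. For paraquat against control it was 2550, and 1628, 5576 and 1311. For mastoparan against paraquat it was 2331, and 5146 with no filter and 1135 with a minimum of 5 CPM, and for the day-8 control against Flag 4311, and 7387 and 2858. No paired analysis was possible because each group has 1 library and the labels carry no replicate numbers. Depth limited Ppif most: with 79 to 112 counts outside the CypD library, its folds of 1.14 with mastoparan and 1.17 with paraquat were not detectable as differences.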

Other observations

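The prolyl isomerases of the other families, the FKBPs and parvulins, were measured as a list of 18 genes, of which 17 passed the filter. Between CypD and Flag their median log2 ratio was 0.07, beside 0.11 for the 7 cyclophilins other than Ppif, and 1 gene was past 1.5-fold, beside 11.0% of all genes. That gene, Fkbpl, had 46 counts under CypD and 21 under Flag, a fold of 1.61 with an interval of 0.940 to 2.84. Fkbp11, of the secretory pathway, was at 1.39-fold (1.04 to 1.89). With mastoparan none was past 1.5-fold. With paraquat 3 of 17 were, a share near the 18.7% of all genes: Fkbp1b (17 counts against 10 in the control, 2.27-fold, 0.982 to 5.55), Pin4 (90 against 70, 1.72-fold, 1.24 to 2.38) and Fkbp2 (195 against 173, 1.51-fold, 1.22 to 1.86). Fkbp2 falls outside the naming rule and is given to complete the count. With the length trend removed the log2 ratios with paraquat were 0.85 for Fkbp1b, 0.24 for Pin4 and 0.15 for Fkbp2.

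Between the day-8 control and the day-4 Flag library 31.7% of all genes were past 1.5-fold. In the list around Ppib 2 of 14 genes were higher and 1 lower, with 11 below 0 and a median log2 ratio of -0.17. P4ha1 (885 counts at day 8 and 304 at day 4, 2.39-fold, 2.10 to 2.73) and Plod1 (852 and 313, 2.24-fold, 1.96 to 2.55), hydroxylases that modify collagen, were higher at day 8. Hspa5, a chaperone of the endoplasmic reticulum, was the lower one, at 1.62 times lower (1.51 to 1.75), and falls outside the naming rule. Around Ppif, 2 of 19 were higher and none lower, with a median of under 0.01 in size: Hk1 was at 1.74-fold (1.53 to 1.99) and Tspo, an outer mitochondrial membrane protein, at 1.72-fold (1.49 to 1.99). Of the 13 genes of the U4/U6 particle and Prp19 complex 5 were lower at day 8 and none higher, with a median log2 ratio of -0.44. Among these were Crnkl1, 2.14 times lower (1.58 to 2.91), and Prpf4, a direct partner of the protein that Ppih encodes, 1.94 times lower (1.48 to 2.54). Of the 11 genes of the calcineurin list 2 were higher and 1 lower, with a median of 0.10. Nfatc2 had 91 counts at day 8 and 26 at day 4, a fold of 2.88 (1.84 to 4.64), and Nfatc1 had 20 and 28, 1.70 times lower (0.926 to 3.19). Rcan1, the other gene that was higher, was at 1.58-fold (1.28 to 1.96) and falls outside the naming rule. Day and genotype label cannot be told apart in these values.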
